A study of Mus musculus with 8 samples.

Results

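The genes described here are 10 targets of the tumour suppressor p53 and genes of cell senescence, chosen by name: Trp53 itself, Cdkn1a, Cdkn2a, Mdm2, Ccng1, Bax, Sesn1, Sesn2, Gdf15 and Trp53inp1. Of these, 7 were matched to a probe set annotated with that 1 gene symbol, out of 22180 genes with such a probe set. Trp53, Bax and Gdf15 matched none, by symbol or by gene ID, and were not analysed here. Of the 7 genes with a value, 6 passed the filter on low signal and were tested among 13112 genes, while Cdkn2a lay below it. Every one of the 7 had a single probe set.

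RNA levels were read on arrays from club cells, which secrete the protective proteins of the small airways, taken from the lungs of mice that lack or keep Atgl. This gene, listed as Pnpla2, makes the lipase that opens the breakdown of triglyceride stores. There were 4 Atgl KO/cTg pools of 4 mice each (16 mice), against 4 wt/cTg pools of 3 or 4 mice (14 mice), with 1 array for each pool. The Atgl KO/cTg mice were 38 to 46 weeks old, and the wt/cTg mice 41 to 48 weeks old. All mice carried cTg and ate a standard chow diet, and none was treated. The labels do not expand cTg. In the literature on ATGL deficiency the same name stands for a transgene that makes the lipase in heart muscle, which is background and not stated by the labels. No genotoxic treatment and no measure of DNA damage belongs to the design, so the levels below are those of untreated mice in middle age.

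The protein p53 is a transcription factor that is held at a low level by MDM2, an enzyme that marks it for degradation, and that accumulates when DNA is damaged or nutrients and oxygen run short. Its targets stop the cell cycle, repair DNA, start cell death or lower growth signalling, and one of them is Mdm2 itself, which closes a feedback loop. Lasting arrest of the cell cycle is called senescence. It is held in place by the cyclin-dependent kinase inhibitors p21, the product of Cdkn1a, and p16, a product of Cdkn2a. In the lung, damage and ageing are known to bring p21 and p16 into epithelial cells, and senescent cells secrete inflammatory and matrix-degrading proteins.

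p53 binds DNA at pairs of a short palindromic element, the p53 consensus decamer. Shown are the promoter windows of the measured genes that hold at least 1 decamer. Those of Mdm2, Ccng1 and Sesn1 hold 1 each and so no exact pair. Whether p53 reads any of these windows was not tested. The windows run from 250 bases before to 50 bases after an annotated start of transcription and come from RefSeq on build GRCm38.p6. They are printed 5′ to 3′ on the gene's strand with each decamer in capitals. The Cdkn1a window belongs to the upstream of its 2 annotated starts (chr17:29090729-29091028, plus strand), the Mdm2 and Ccng1 windows to their single annotated starts (chr10:117710709-117711008 and chr11:40755237-40755536, both minus strand), and the Sesn1 window to the downstream of its 2 starts (chr10:41887189-41887488, plus strand).
Cdkn1a: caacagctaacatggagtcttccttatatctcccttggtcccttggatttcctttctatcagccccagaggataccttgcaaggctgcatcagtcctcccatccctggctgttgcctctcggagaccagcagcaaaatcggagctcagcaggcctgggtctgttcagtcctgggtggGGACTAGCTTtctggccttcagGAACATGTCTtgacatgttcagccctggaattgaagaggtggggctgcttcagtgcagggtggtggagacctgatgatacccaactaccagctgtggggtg
Mdm2: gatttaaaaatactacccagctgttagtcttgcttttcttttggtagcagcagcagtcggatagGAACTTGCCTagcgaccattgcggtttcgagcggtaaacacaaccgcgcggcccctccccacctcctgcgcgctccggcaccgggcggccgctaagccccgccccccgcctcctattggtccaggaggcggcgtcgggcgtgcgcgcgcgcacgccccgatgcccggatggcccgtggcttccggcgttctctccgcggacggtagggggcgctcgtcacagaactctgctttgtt
Ccng1: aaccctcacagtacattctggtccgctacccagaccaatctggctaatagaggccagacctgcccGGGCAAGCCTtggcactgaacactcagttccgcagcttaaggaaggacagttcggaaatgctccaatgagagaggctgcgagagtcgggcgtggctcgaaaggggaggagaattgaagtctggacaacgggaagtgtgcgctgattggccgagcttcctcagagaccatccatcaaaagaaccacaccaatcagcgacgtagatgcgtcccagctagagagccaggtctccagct
Sesn1: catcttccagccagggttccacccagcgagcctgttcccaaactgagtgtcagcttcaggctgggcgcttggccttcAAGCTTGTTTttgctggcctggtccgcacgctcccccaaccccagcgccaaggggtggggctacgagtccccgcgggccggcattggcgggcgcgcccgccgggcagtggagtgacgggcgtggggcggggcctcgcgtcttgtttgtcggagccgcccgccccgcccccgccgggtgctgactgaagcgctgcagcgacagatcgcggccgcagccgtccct

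In the Cdkn1a window the decamers began 73 and 51 bases before the start. Those of Mdm2, Ccng1 and Sesn1 began 186, 185 and 173 bases before it. Directly after the downstream Cdkn1a decamer lies tgacatgttc, which departs from the element only at its first base. This stretch stays in small letters because no mismatch was allowed. Whether the 2 marked Cdkn1a decamers form a pair that p53 binds was not tested. The promoter table held 13 windows for 9 of the 10 genes, and 6 windows, each of a different gene, had a decamer with 0 mismatches. The other 2 of these genes were Trp53 and Bax. Over all genes, 2745 of 32851 windows of 300 bases held one, or 8.36%, on either strand, since the element is its own reverse complement. The windows of Sesn2 and both windows of Cdkn2a and of Gdf15 had no match, which says only that these letters are not in these windows. No binding was measured here, and an array value does not say from which start a transcript came.

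Pnpla2, the gene knocked out, gave a log2 signal of 6.98 ± 0.20 in Atgl KO/cTg pools, against 8.70 ± 0.11 in wt/cTg pools (SD, n = 4 each), and the groups did not overlap (limma adjusted p = 0.000116). Where its probes lie relative to the deletion is unknown here. Scgb1a1, the secretoglobin that defines club cells, read 12.92 ± 0.10 in Atgl KO/cTg pools, against 12.99 ± 0.08 in wt/cTg pools (SD, n = 4 each). Of the 10 club cell markers, 8 lay higher and 2 lower in Atgl KO/cTg (median log2 difference 0.11). Their mean signals were 11.15 to 11.31 in Atgl KO/cTg pools, against 11.10 to 11.20 in wt/cTg pools. At an unadjusted limma p under 0.05, 3 were higher and 0 lower (30%), beside 7.95% of all genes tested, and none passed after adjustment. Transcripts of other cell types were present too, and their levels differed between genotypes. All 12 alveolar type 2 markers lay lower in Atgl KO/cTg, with mean signals of 10.03 to 10.33 per pool, against 10.51 to 11.01 in wt/cTg, and 5 of them fell by the limma test. That count ran from 0 to 6 over the 15 alternative settings and was 0 in 8 of them, which were no variance trend, quantile normalization, and leaving out replicate 1, 3 or 4 of Atgl KO/cTg or replicate 2, 3 or 4 of wt/cTg. All 8 goblet cell markers lay above 0 (mean signal 8.29 to 9.45 in Atgl KO/cTg pools, 7.15 to 8.39 in wt/cTg pools), and so did all 6 tested neutrophil markers (7.72 to 8.80, against 7.53 to 8.25 in wt/cTg), with none passing in either list. The part of these cells in the values below was not tested. One pool stood apart by sex-linked transcripts: Xist read 3.75 in wt/cTg replicate 4, against 9.34 to 10.49 in Atgl KO/cTg pools and 10.30 to 10.67 in the other wt/cTg pools, and Kdm5d, from the Y chromosome, was highest there (7.05). Kdm5d also read higher in Atgl KO/cTg pools (5.74 to 6.51) than in the other 3 wt/cTg pools (5.27 to 5.51), and so did the Y-linked Eif2s3y (6.49 to 7.17, against 6.03 to 6.36). Uty, also Y-linked and below the filter on signal, overlapped between these pools (4.52 to 5.51, against 4.18 to 4.85). The part of these differences between pools in the values below was not tested.

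None of the 6 tested genes differed between genotypes by the limma test with Benjamini-Hochberg adjustment, for which the lowest adjusted p among them was 0.615. Over all 13112 genes 13 passed, or 0.0991%, of which 2 (0.0153%) were higher and 11 (0.0839%) lower in Atgl KO/cTg. Without wt/cTg replicate 4, 0 were higher and 1 lower. With each array centred on its median 1 was higher and 18 lower, and after quantile normalization 0 were higher and 1 lower. At an unadjusted p under 0.05, 1 of the 6 genes was called, Trp53inp1, against a background of 7.95% of all genes tested, with 3.39% of all genes tested higher and 4.56% lower in Atgl KO/cTg. Groups overlapped for all 7 genes with a value, while 4.35% of all genes tested had groups that did not overlap, 1.74% of all genes tested with Atgl KO/cTg higher. The median log2 difference of the 6 genes, Atgl KO/cTg minus wt/cTg, was -0.034, and that of all genes tested was -0.0073. In bulk RNA from pools, a change in the number of cells of a type and a change in RNA per cell cannot be told apart.

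**Figure D1:**
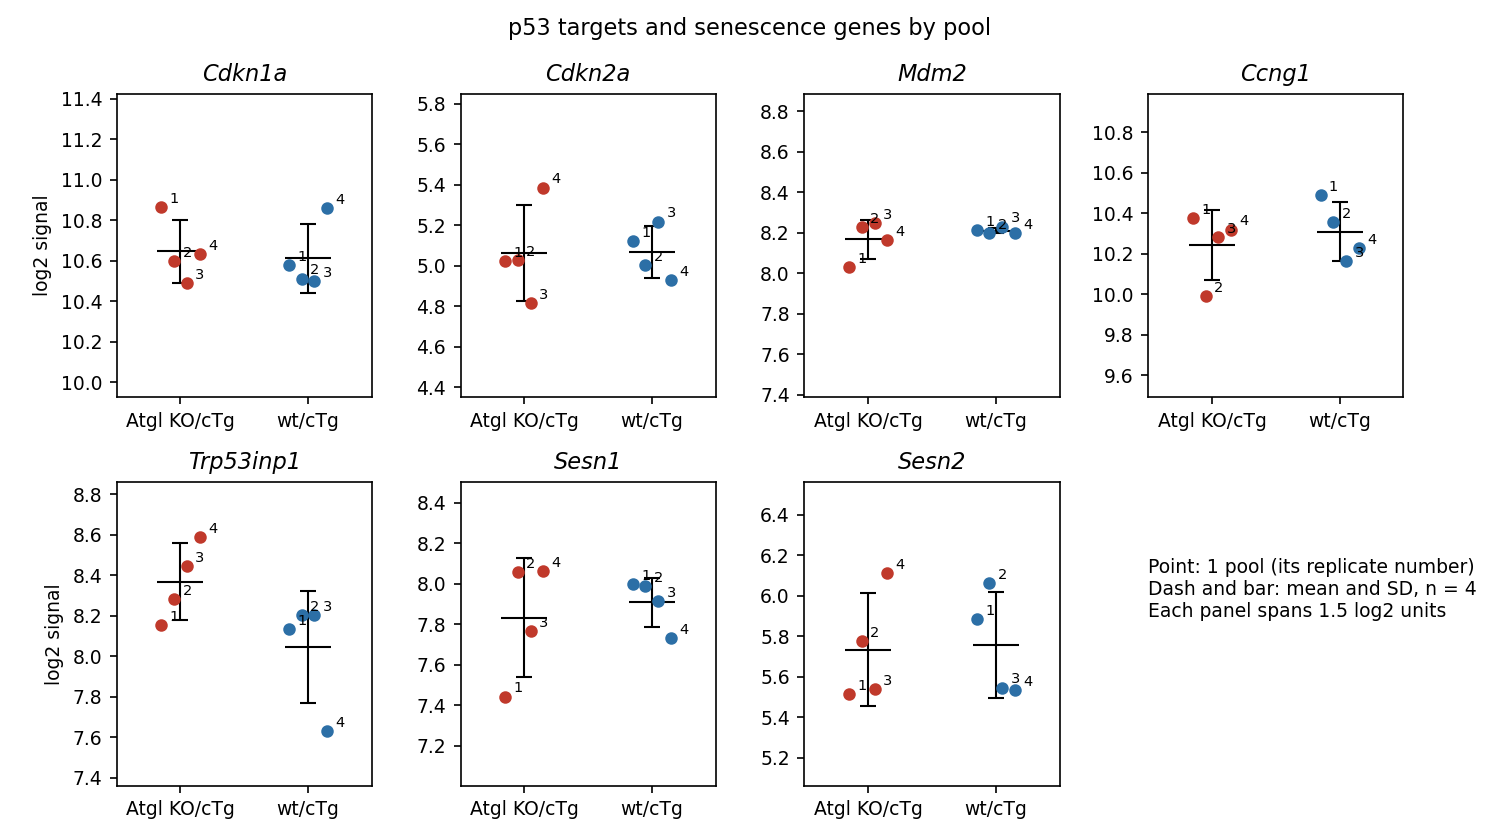
Log2 signal (vertical axes) of the 7 measured genes in each pool, with Atgl KO/cTg pools in red and wt/cTg pools in blue, numbered by replicate. Dashes and bars give mean and SD (n = 4), every panel spans 1.5 log2 units, and the groups overlap in all 7 panels.

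Mdm2, whose protein limits p53 and whose gene is a p53 target, had the steadiest signal. It read 8.03, 8.23, 8.25 and 8.17 in Atgl KO/cTg pools, against 8.22, 8.20, 8.23 and 8.20 in wt/cTg pools. The wt/cTg pools lay closely together, and the only value set apart was the low one of Atgl KO/cTg replicate 1. Atgl KO/cTg minus wt/cTg was -0.044 on the log2 scale (SE 0.079, limma adjusted p = 0.936), with a 95% interval of -0.22 to 0.13 that corresponds to 0.860-fold to 1.09-fold. Only 4.21% of all genes tested had a smaller SD within the groups than the 0.070 of Mdm2. Without Atgl KO/cTg replicate 1 the difference was 0.0018. Intervals here and below are not adjusted for the number of genes.

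Cdkn1a encodes p21, which blocks cyclin-dependent kinases and is the classical p53 target of cell cycle arrest. Its signal was 10.86, 10.60, 10.49 and 10.63 in Atgl KO/cTg pools, against 10.58, 10.51, 10.50 and 10.86 in wt/cTg pools. Each genotype thus had 1 high pool, replicate 1 in Atgl KO/cTg and replicate 4 in wt/cTg, and 3 pools close together below it. The means were 10.65 ± 0.16 in Atgl KO/cTg pools, against 10.61 ± 0.17 in wt/cTg pools (SD, n = 4 each). Atgl KO/cTg minus wt/cTg gave 0.034 on the log2 scale (SE 0.100, limma adjusted p = 0.966, exact permutation p = 0.629), with a 95% interval of -0.19 to 0.25, or 0.879-fold to 1.19-fold. Without wt/cTg replicate 4 it was 0.12 (limma adjusted p = 0.865), and without Atgl KO/cTg replicate 1 it was -0.039 (limma adjusted p = 0.950).

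Cdkn2a makes both p16, an inhibitor of CDK4 and CDK6 that marks many senescent cells, and ARF, which blocks MDM2, from separate first exons. Its probe set read 5.02, 5.03, 4.82 and 5.39 in Atgl KO/cTg pools, against 5.12, 5.002, 5.22 and 4.93 in wt/cTg pools. The mean over all 8 arrays lay below the filter of 5.18, the median of all probe sets. Signal above background could not be tested without detection values, and which of the 2 transcripts the probes read is unknown here. The group means were 5.06 ± 0.24 in Atgl KO/cTg pools, against 5.07 ± 0.13 in wt/cTg pools (SD, n = 4 each), a log2 difference of -0.0055 (exact permutation p = 0.971). With no filter on level limma gave an adjusted p of 0.996.

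Ccng1, cyclin G1, is a p53 target whose protein helps MDM2 act on p53. It read 10.38, 9.99, 10.28 and 10.32 in Atgl KO/cTg pools, against 10.49, 10.36, 10.16 and 10.23 in wt/cTg pools. Atgl KO/cTg replicate 2 was the lowest of all pools and wt/cTg replicate 1 the highest. This left a log2 difference of -0.066 (SE 0.099, limma adjusted p = 0.912), with a 95% interval of -0.28 to 0.15, and it was 0.018 without Atgl KO/cTg replicate 2.

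Trp53inp1 encodes a stress-induced protein that binds p53 and kinases that activate it, and that also acts in autophagy. It had the largest difference of the 6 tested genes. The signal was 8.15, 8.28, 8.45 and 8.59 in Atgl KO/cTg pools, against 8.14, 8.20, 8.20 and 7.63 in wt/cTg pools. Of the Atgl KO/cTg pools 3 lay above every wt/cTg pool, and Atgl KO/cTg replicate 1 lay between the lower and upper wt/cTg values, so the groups overlapped by that pool alone. The means were 8.37 ± 0.19 in Atgl KO/cTg pools, against 8.04 ± 0.28 in wt/cTg pools (SD, n = 4 each). The log2 difference was 0.32 (SE 0.14, 1.25-fold), with an unadjusted limma p of 0.0438, an adjusted p of 0.615 and an exact two-sided permutation p of 0.0857, where 0.0286 is the smallest possible with 8 arrays. It did not pass over all genes, and 7.12% of all genes tested had a smaller p. The unadjusted limma p ran from 0.0204 to 0.129 over the 15 alternatives and was above 0.05 in 7 of them: no variance trend, median centring, age as a covariate, and without replicate 2, 3 or 4 of Atgl KO/cTg or replicate 4 of wt/cTg. Without wt/cTg replicate 4, the pool with low Xist, the difference was 0.19 (limma adjusted p = 0.856).

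**Figure D2:**
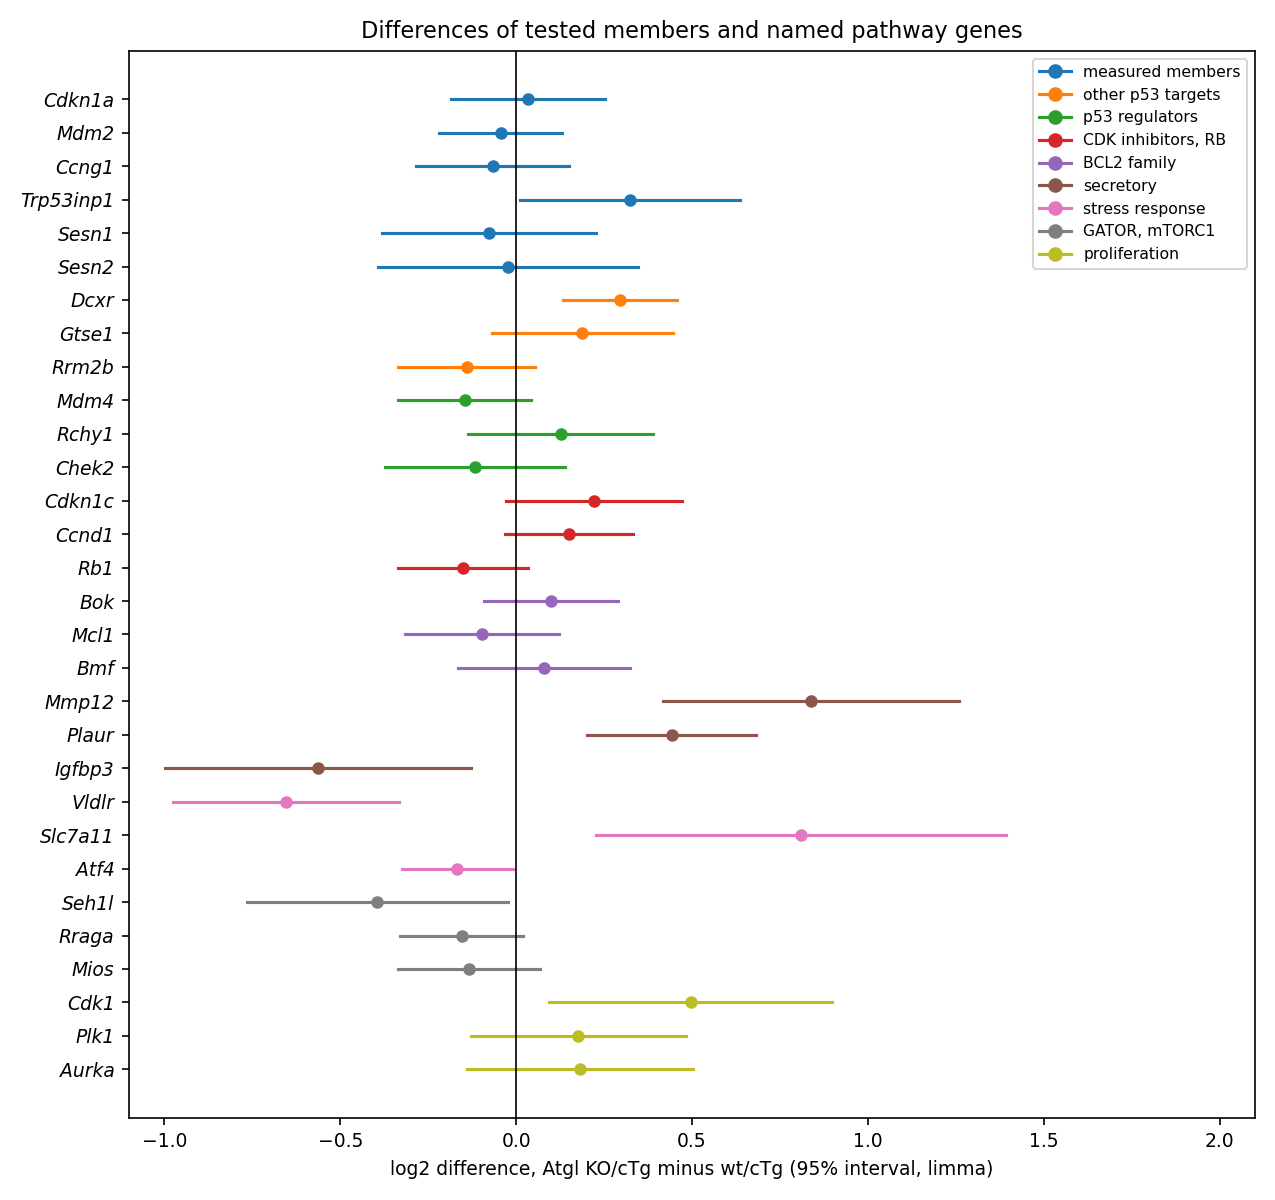
Log2 difference, Atgl KO/cTg minus wt/cTg (horizontal axis), with its 95% limma interval for the 6 tested members and for the genes named from 8 related lists, coloured by list. The intervals of Cdkn1a, Mdm2, Ccng1, Sesn1 and Sesn2 include 0, that of Trp53inp1 runs from 0.011 to 0.64 in the fit shown, and no gene shown passed the adjusted threshold.

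Sesn1 and Sesn2 encode sestrins, proteins that lower signalling through the growth regulator mTORC1 and act against oxidative stress. Sesn1 is chiefly a target of p53 and FoxO factors, while Sesn2 also answers to ATF4, the factor of the integrated stress response. Sesn1 read 7.44, 8.06, 7.77 and 8.06 in Atgl KO/cTg pools, against 7.998, 7.99, 7.91 and 7.73 in wt/cTg pools. Sesn2 read 5.51, 5.78, 5.54 and 6.11 in Atgl KO/cTg pools, against 5.89, 6.06, 5.55 and 5.53 in wt/cTg pools. The lowest pool of each genotype was the same for both genes, replicate 1 of Atgl KO/cTg and replicate 4 of wt/cTg. Neither gene passed: Sesn1 had a log2 difference of -0.076 (SE 0.14, limma adjusted p = 0.936, 95% interval -0.38 to 0.23). For Sesn2 it was -0.024 (SE 0.17, limma adjusted p = 0.988, 95% interval -0.39 to 0.35). Sesn2 had the widest interval of the 6 tested genes, and 84.4% of all genes tested had a smaller SD within the groups than Sesn2. The Sesn1 difference was 0.053 without Atgl KO/cTg replicate 1 and -0.13 without wt/cTg replicate 4. That of Sesn2 was above 0 in 4 of the 8 fits with 1 array left out, running from -0.15 without Atgl KO/cTg replicate 4 to 0.078 without wt/cTg replicate 2, and was -0.0981 without wt/cTg replicate 4.

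Pools differed among themselves in a way that several of these genes shared. Replicate 1 of Atgl KO/cTg and replicate 4 of wt/cTg were each the highest pool of their genotype for Cdkn1a and the lowest for Sesn1, Sesn2 and Trp53inp1. For Sesn2 replicate 3 lay close to them in both genotypes (5.51 against 5.54 in Atgl KO/cTg, 5.53 against 5.55 in wt/cTg). The mean signal of all 13112 genes tested was also lowest in Atgl KO/cTg replicate 1 (7.21, against 7.26 to 7.35 in the other 7 pools), but it was 7.27 in wt/cTg replicate 4, inside that range. The median over all probe sets was instead highest in Atgl KO/cTg replicate 1 (5.239, against 5.123 to 5.233 in the other pools). Over the values of all 8 arrays, Cdkn1a had a Pearson r of -0.59 with Trp53inp1, -0.65 with Sesn1 and -0.35 with Sesn2. The exact permutation p, unadjusted, was 0.135, 0.0783 and 0.394 in that order. Without both pools, r on the same values was 0.35 with Trp53inp1, 0.83 with Sesn1 and 0.62 with Sesn2, so the negative relations rested on that pair of pools. With genotype means taken off, as plotted, r over all 8 arrays was -0.85 with Trp53inp1, -0.65 with Sesn1 and -0.34 with Sesn2.

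Among the 21 pairs of the 7 measured genes, Sesn1 and Sesn2 ran closest together over the 8 arrays. Their Pearson r was 0.73 (exact permutation p = 0.0277, Benjamini-Hochberg adjusted over the pairs 0.442) and their Spearman rho 0.90 (exact permutation p = 0.00456, adjusted 0.0958). Without the 2 pools farthest from the median of Sesn1, again replicate 1 of Atgl KO/cTg and replicate 4 of wt/cTg, r was 0.75. Cdkn1a and Mdm2 ran in opposite directions, with r = -0.70 (exact permutation p = 0.0421, adjusted 0.442) and rho = -0.79 (exact permutation p = 0.0279, adjusted 0.293), and r was -0.65 without those 2 pools. No pair passed after adjustment. The labels give no batch, so no within-batch value could be had.

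**Figure D3:**
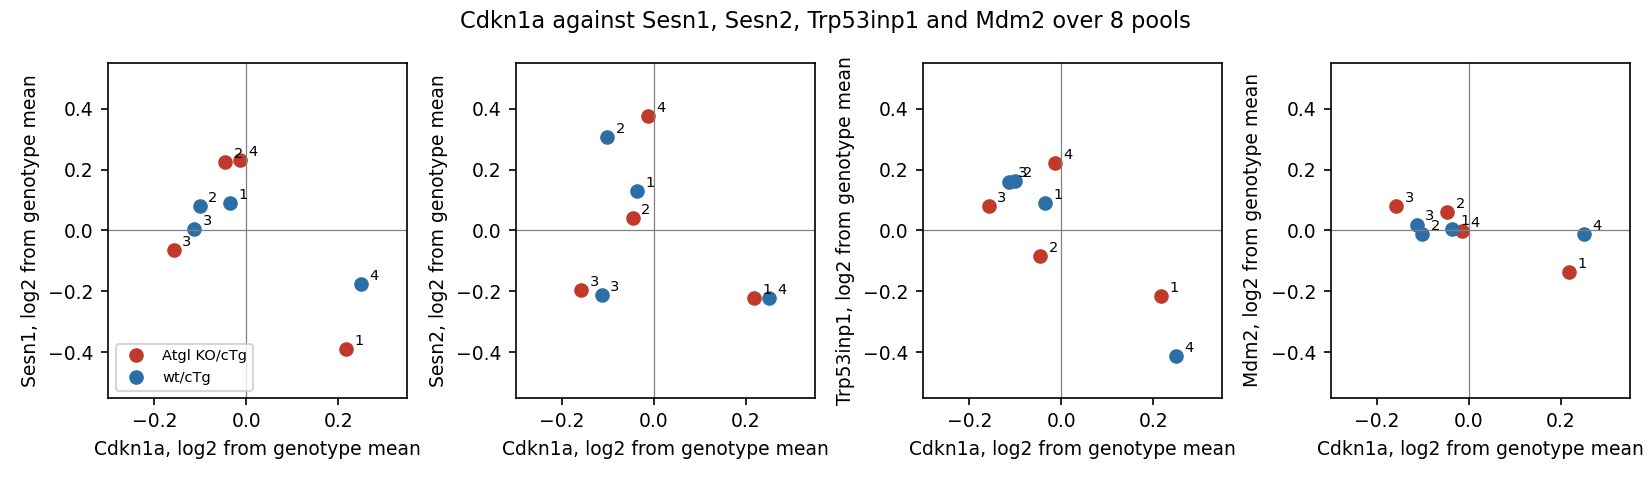
Cdkn1a (horizontal axes) against Sesn1, Sesn2, Trp53inp1 and Mdm2 (vertical axes), each as log2 signal minus its genotype mean, with Atgl KO/cTg pools in red and wt/cTg pools in blue, numbered by replicate. Replicate 1 of Atgl KO/cTg and replicate 4 of wt/cTg lie to the right in all 4 panels and low for Sesn1, Sesn2 and Trp53inp1.

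The 3 genes whose pattern over the arrays was most like that of Cdkn1a, after genotype means were taken off, were Tspan15, a tetraspanin membrane protein (r = 0.98), Tmem150c (r = 0.94) and Ddah1, an enzyme that degrades an inhibitor of nitric oxide synthesis (r = 0.94). They were picked as the highest of 13111 genes, and these r are a description. Tspan15 read 7.82, 7.62, 7.44 and 7.66 in Atgl KO/cTg pools, against 7.72, 7.57, 7.57 and 7.99 in wt/cTg pools, with the same pair of pools high as for Cdkn1a.

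The wider p53 and senescence programme was read through 8 further lists with 166 genes, of which 150 were tested. None of the 150 passed the limma threshold over all genes. At an unadjusted p under 0.05 there were 6 higher and 6 lower in Atgl KO/cTg, 12 of 150 in all (8%), close to the 7.95% of all genes tested. Their median log2 difference was 0.0081.

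**Figure D4:**
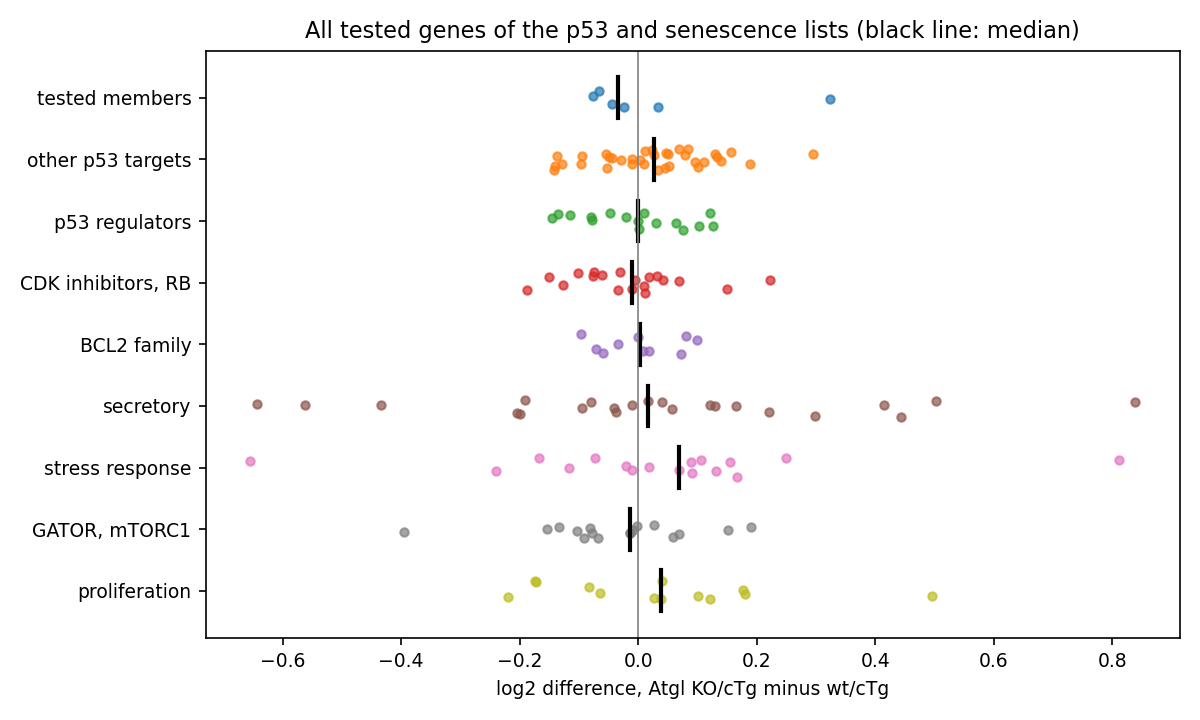
Log2 difference, Atgl KO/cTg minus wt/cTg (horizontal axis), of every tested gene in the members' list and in 8 related lists (rows), 1 point a gene, with the list median as a black line. The medians run from -0.034 to 0.069, and the points furthest from 0 belong to the secretory and stress response lists.

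Of 37 other p53 targets listed, 35 were tested, 22 above and 13 below 0, with a median of 0.026 and differences of -0.14 to 0.29. At an unadjusted p under 0.05 there was 1 gene, or 2.86%, beside 7.95% of all genes tested. It was Dcxr, a reductase of dicarbonyl compounds and sugars that is listed among p53 targets. Dcxr read 10.46, 10.43, 10.31 and 10.63 in Atgl KO/cTg pools, against 10.21, 10.16, 10.15 and 10.14 in wt/cTg pools. Every Atgl KO/cTg pool lay above every wt/cTg pool, which also held for 1.74% of all genes tested. The log2 difference of 0.29 (SE 0.074) had a limma adjusted p of 0.329. Next by p were Gtse1, a mitotic protein that restrains p53 (0.19, adjusted p = 0.745), and Rrm2b, the p53-inducible ribonucleotide reductase subunit (-0.14, adjusted p = 0.757). The groups of Rrm2b did not overlap either, with Atgl KO/cTg lower (6.97 to 7.10, against 7.12 to 7.28 in wt/cTg). Dcxr and Rrm2b were the 2 of 35 genes without overlap, beside 4.35% of all genes tested in either direction.

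Regulators of p53 showed no call either, with 16 of 18 tested, 8 on each side of 0 and none at an unadjusted p under 0.05. Mdm4, the partner of MDM2 that blocks p53 directly, was at -0.15 (SE 0.086, limma adjusted p = 0.728), Rchy1, another enzyme that marks p53 for degradation, at 0.13, and Chek2, a kinase that activates p53 after DNA breaks, at -0.12. In the list of other cyclin-dependent kinase inhibitors and the retinoblastoma pathway, 19 of 21 genes were tested, 8 above and 11 below 0 (median -0.011), again with none at an unadjusted p under 0.05. Its first genes by p were Cdkn1c, the inhibitor p57 (0.22), Ccnd1, cyclin D1 (0.15), and Rb1, the retinoblastoma protein that p16 keeps active (-0.15), with limma adjusted p of 0.660 to 0.703. With the mean of its probe sets, Rb1 was at -0.082 (limma adjusted p = 0.905). Of the BCL2 family, which holds the switch of mitochondrial cell death to which Bax belongs, 10 of 11 genes were tested. They lay between -0.096 and 0.100, with Bok at 0.100, Mcl1, a survival protein, at -0.096 and Bmf at 0.080, and none had an unadjusted p under 0.05.

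The list of the senescence-associated secretory phenotype had the widest range of differences of the 8 pathway lists, just ahead of the stress response list. Of 29 listed, 23 were tested, 12 above and 11 below 0, with a median of 0.016 but a range of -0.64 to 0.84. At an unadjusted p under 0.05 there were 3 higher and 3 lower, or 26.1% of the list, beside 7.95% of all genes tested, and none passed over all genes. Il6, Mmp13 and Csf2 were below the filter.

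Mmp12, a metalloproteinase made by macrophages, read 7.38, 7.35, 7.78 and 7.49 in Atgl KO/cTg pools, against 7.20, 6.45, 6.77 and 6.22 in wt/cTg pools. All Atgl KO/cTg pools were above all wt/cTg pools, with a log2 difference of 0.84 (SE 0.19, limma adjusted p = 0.271). Without wt/cTg replicate 1 it was 1.02 and passed (limma adjusted p = 0.0387). The 8 macrophage markers had a mean signal of 8.89 to 9.35 in Atgl KO/cTg pools and 8.90 to 8.98 in wt/cTg pools, and their part in the Mmp12 value was not tested. Plaur, the receptor of urokinase, which neutrophils and macrophages also carry, was at 0.44 (SE 0.11, limma adjusted p = 0.313). Its groups did not overlap, which held for 4.35% of all genes tested in either direction. Igfbp3, a binding protein of insulin-like growth factors, was at -0.56 (SE 0.20, limma adjusted p = 0.518). The 10 fibroblast and smooth muscle markers all lay below 0, with a mean signal of 7.66 to 8.18 in Atgl KO/cTg pools and 8.18 to 8.63 in wt/cTg pools. Their part in the Igfbp3 value was not tested.

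The integrated stress response shares Sesn2 with p53, and 17 of its 18 listed genes were tested, 10 above and 7 below 0 (median 0.069). At an unadjusted p under 0.05 there were 1 higher and 2 lower (17.6%), beside 7.95% of all genes tested. Atf4, its central factor, read 10.85, 10.77, 10.93 and 11.08 in Atgl KO/cTg pools, against 11.11, 11.02, 11.09 and 11.08 in wt/cTg pools. Its log2 difference came to -0.17 (SE 0.072, limma adjusted p = 0.600), with 3 of 4 Atgl KO/cTg pools below every wt/cTg pool. Slc7a11, the cystine transporter that ATF4 induces and p53 represses, was at 0.81 (SE 0.27, limma adjusted p = 0.462), and its wt/cTg pools were spread from 5.49 to 6.91. The Slc7a11 difference was 0.85 with the mean of its probe sets (limma adjusted p = 0.329). Vldlr, the very low density lipoprotein receptor, was at -0.65 (SE 0.15, limma adjusted p = 0.253). Its groups did not overlap, which held for 4.35% of all genes tested in either direction.

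The mTORC1 pathway, on which the sestrins act through the GATOR complexes, had all 17 listed genes tested, 5 above and 12 below 0 (median -0.014). At an unadjusted p under 0.05 there were 0 higher and 1 lower (5.88%), beside 7.95% of all genes tested. Seh1l, a GATOR2 subunit that also serves the nuclear pore, was at -0.39 (SE 0.17, limma adjusted p = 0.600), Rraga, a GTPase that recruits mTORC1 to lysosomes, at -0.15 and Mios, another GATOR2 subunit, at -0.13. With the mean of its probe sets, Seh1l was at -0.27 (limma adjusted p = 0.613). Rraga alone of the 17 had groups that did not overlap, which held for 4.35% of all genes tested in either direction. Proliferation genes, which fall in arrested cells, had 13 of 15 tested, 8 above and 5 below 0 (median 0.038). Here 1 was higher and 0 lower at an unadjusted p under 0.05 (7.69%, beside the same 7.95%). Cdk1, the kinase of mitotic entry, was at 0.50 (SE 0.18, limma adjusted p = 0.524), with values of 6.87, 6.74, 6.46 and 6.82 in Atgl KO/cTg pools, against 6.59, 5.80, 6.54 and 5.98 in wt/cTg pools. Plk1 and Aurka, mitotic kinases, were both at 0.18, with limma adjusted p of 0.798 and 0.803.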

How the data were processed

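Per the labels' protocols, pooled club cell RNA was isolated with a miRNeasy kit, amplified with NuGEN Ovation Pico reagents and marked with biotin. The series holds deposited log2 values for each probe set on each array, taken here without change. The unit was read from the values (1.85 to 13.54, array medians 5.12 to 5.24), while software, background correction and normalization by the authors were not given in the sources used here. Groups came from the genotype label, and replicate numbers follow sample order and pair nothing. Whether the pools of a genotype came from separate isolations is not stated, so p-values measure the spread between these pools.

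Of 41345 probe sets, 23521 had 1 symbol, 1814 several and 16010 none in the platform annotation. The probe set with the highest mean was kept for each of 22180 genes, and the 13112 genes with a mean above 5.18, the median of all probe sets, were tested. No 2 arrays held identical values (correlations 0.965 to 0.985). The comparison of Atgl KO/cTg with wt/cTg used limma 3.58.1 under R 4.3.3 (lmFit, eBayes with a variance trend, two-sided, Benjamini-Hochberg over all genes tested, threshold 0.05), with intervals from the same fit. Exact permutation tests used all 70 arrangements of arrays for a difference and all orders of 8 arrays for a correlation. The fit was tested on simulated data. Precision is limited by how many arrays there are.

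The members, the lists and the tests were chosen with earlier results of these data known. The text names every member, Pnpla2, Scgb1a1, up to 3 genes per list by smallest p, and the 3 genes most like Cdkn1a. Promoter sequences are RefSeq's on GRCm38.p6. Alternatives covered the filter, variance trend, normalization, centring, probe set rule, array weights, age and each array left out.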

Additional observations from a re-analysis of the deposited data

Results flagged for a closer look

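In 11 of the 110 groups of 4 pools checked (members and named genes, each genotype apart), 1 pool lay far from the other 3 by Dixon's test, where chance flags about 1 in 20. Among the members this was wt/cTg replicate 4 for Trp53inp1, at 7.63, below 8.14 to 8.20 in the other wt/cTg pools. That pool also had the low Xist signal, and whether this bears on Trp53inp1 was not tested. Among regulators and pathway genes, Rchy1 was high in Atgl KO/cTg replicate 4 (8.32) and low in wt/cTg replicate 3 (7.65). Ccnd1 was low in Atgl KO/cTg replicate 3 (9.51) and Mcl1 in Atgl KO/cTg replicate 2 (10.44). Rraga was low in Atgl KO/cTg replicate 2 (8.48) and in wt/cTg replicate 4 (8.76). Among cell type markers, Muc4, a goblet cell mucin, was high in Atgl KO/cTg replicate 2 (8.83). Scgb1a1 was low in wt/cTg replicate 1 (12.88), where Gabrp was high (11.21), and Emp2 was high in wt/cTg replicate 4 (10.88).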

How the results depend on the processing

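None of the 6 tested members passed under any of the 15 alternatives, and their lowest adjusted p was 0.472 (Trp53inp1). The count over all genes, 13 as reported, was 7 with no filter on level, 1 without the variance trend, 1 after quantile normalization, 23 with array weights, 7 with age as a covariate, and 1 to 25 with 1 array left out (1 without Atgl KO/cTg replicate 1, 25 without wt/cTg replicate 1). The causes were not tested. Among the listed pathway genes the count ran from 0 to 1 with 1 array left out, and the 1 was Mmp12. With 1 array left out, log2 differences turned sign for 5 members and 1 named gene: Cdkn1a ran from -0.039 to 0.12, Mdm2 from -0.070 to 0.0018, Ccng1 from -0.115 to 0.018, Sesn1 from -0.15 to 0.053, Sesn2 from -0.15 to 0.078, and Mcl1 from -0.14 to 0.016. Trp53inp1 was positive throughout, from 0.19 to 0.40 with 1 array left out and from 0.29 to 0.36 under the other alternatives. No paired analysis was made, and any set structure was left out of the fit, because no label says which pools belong together. The study speaks of 4 sets without naming their samples, and the running mouse numbers in the titles leave 1 pool of each genotype with no neighbour. The number of arrays and the lack of detection values limit what can be said of low signals such as Cdkn2a.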
